A study of Mus musculus with 6 samples.

Results

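Lipid droplet and triglyceride genes were described in sorted mouse microglia with and without Bhlhe41. The genes were Plin2, Plin3, Acsl1, Dgat1, Dgat2, Pnpla2, Lipe, Mgll and Hilpda, chosen by symbol. All 9 were on the array, among 23462 named genes that were tested, and 12 probes matched their transcript accessions. Plin2, Acsl1 and Mgll had a pair of probes each, and the other 6 genes had 1.

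The 6 samples were microglia of 3-month-old mice, the brain's resident macrophages, each pooled from 10 to 15 mice by the study's methods and purified as viable CD45lo Cx3cr1+ CD11b+ cells after Percoll enrichment. The labels instead speak of 3 mice per genotype, so whether n = 3 counts pools or single mice is not settled here. The 3 control samples were Bhlhe41 dTomato-Cre/+ (B41HET) and the 3 knockout samples were Bhlhe41 dTomato-Cre/dTomato-Cre (B41KO). Every sample therefore carried at least 1 allele in which a dTomato and Cre cassette placed before the start codon is driven by the Bhlhe41 promoter and ends Bhlhe41 translation. The controls had lost 1 working copy, and the arrays held no wild-type sample.

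Lipid droplets store neutral lipid, mostly triglyceride and cholesteryl ester, under a single phospholipid layer covered by perilipins. Acyl-CoA synthetases activate fatty acids, DGAT enzymes add the last acyl chain to make triglyceride, and lipolysis removes the chains in order through ATGL, hormone-sensitive lipase and monoacylglycerol lipase. In microglia, droplets are known to accumulate with ageing and inflammation.

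Bhlhe41 is a repressor that the study ties to the E-box CACGTG, so the RefSeq promoter windows of the members (GRCm38.p6, 250 bases before to 50 after the start) were read for these letters, which are the same on both strands. There were 11 windows for 7 of the 9 genes, with none for Dgat1 and Dgat2. The letters stood in 1 window each of Plin2, Mgll and Lipe, against 7.15% of all 32851 windows and 8.09% of all genes in the table. Mgll and Lipe each had a further window without the letters. Which start the transcripts of their probes use was not determined. The stretches around the letters are shown 5′ to 3′ along the gene, with the E-box in capitals.
Plin2: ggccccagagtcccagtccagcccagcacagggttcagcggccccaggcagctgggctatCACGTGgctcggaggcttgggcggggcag
Mgll: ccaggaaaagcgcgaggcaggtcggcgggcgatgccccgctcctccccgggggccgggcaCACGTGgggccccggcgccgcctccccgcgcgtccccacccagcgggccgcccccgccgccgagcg
Lipe: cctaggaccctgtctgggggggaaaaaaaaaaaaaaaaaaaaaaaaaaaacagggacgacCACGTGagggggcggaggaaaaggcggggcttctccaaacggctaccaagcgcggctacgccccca
The Plin2 stretch is chr4:86670035-86670123 on the minus strand, and its E-box spans the annotated start, from base -4 to base 2. The Mgll stretch is chr6:88724308-88724433 on the plus strand, with the E-box at -44 to -39. The Lipe stretch is chr7:25396077-25396202 on the minus strand, with the E-box at -155 to -150. These matches are letters in a sequence, and no binding was measured here.

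Signals are given as log2 of the array intensity after quantile normalization, and differences are log2 fold changes of B41KO over B41HET from limma with Benjamini-Hochberg adjustment over 56601 probes. Calls required both an adjusted p no higher than 0.05 and a log2 fold change of at least 0.5 in either direction. The array-wide facts were these. Between 70.1% and 75.5% of probes were well above background on each array, and no spot was saturated. Microglia markers were bright, with 11 of 11 well above background on all 6 arrays and 1 called lower. The Bhlhe41 probes differed by 0.38 (adjusted p = 0.330) and 0.33 (adjusted p = 0.204) and were not lower in B41KO, so its transcript gave no check of the genotype labels. Of the 12 neutrophil markers, 11 had negative log2 fold changes and 8 were called lower in B41KO, with a summed linear signal of 30990 to 34800 in B41HET and 6201 to 6604 in B41KO. All 10 border macrophage markers had negative log2 fold changes and 5 were called lower, with sums of 2530 to 2722 and 1736 to 1923. Most of that sum was Stab1, whose log2 fold change of -0.50 fell just short of a call. Of the 5 monocyte markers, 4 had negative log2 fold changes and 2 were called lower, with sums of 1305 to 1398 and 353.6 to 376.2. The monocyte sum was carried by Chil3 and Ly6c2, the 2 that were called by their brightest probe, and the median log2 fold change of the 5 was -0.35. The other 2 probes of Fn1 were called lower too (limma adjusted p = 0.0017 and 0.0077) and were not well above background on the B41KO arrays, being at least 6.95-fold and 4.75-fold higher in B41HET, while its brightest probe was not called. Of the 5 endothelial markers, 4 had negative log2 fold changes, including 1 of the 2 that were not well above background on any array. The 2 called lower, Ly6c1 and Pecam1, carried sums of 1145 to 1253 and 393.3 to 446.2, while Cldn5 differed by -0.13 (limma adjusted p = 0.470). The part of these cells in the results below was not tested, and in such bulk RNA fewer cells of a type and less RNA per cell cannot be told apart. Of the 4 adipocyte markers none was called by limma, and their sums were 738.1 to 924.7 in B41HET and 855.3 to 898.7 in B41KO.

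Of the 12 probes, 1 was called, that of Dgat2, which was lower in B41KO. Over all probes, 5.09% were called. By the brightest probe of each gene, 1 of 9 members was called, against 5.49% of all genes in either direction and 4.05% called lower. The other 8 members had log2 fold changes between -0.31 and 0.09, of which 6 were below 0. The median of the 9 was -0.25, beside 0.01 for all genes. The 3 B41KO values did not overlap the 3 B41HET values for 10 of 12 probes, beside 29.6% of all probes, and for 7 of 9 genes by the brightest probe, beside 32.1% of all genes. With normexp background correction 7 of 12 probes passed the adjusted p and fell short of the fold threshold. They were the brightest probes of Plin2, Plin3, Acsl1, Dgat1, Dgat2 and Lipe and the second probe of Mgll. In that setting 11.6% of all probes passed the adjusted p, beside 6.75% in the main fit. It adds an offset of 50 to the intensities, which pulls in the fold changes of dim probes most.

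**Figure D1:**
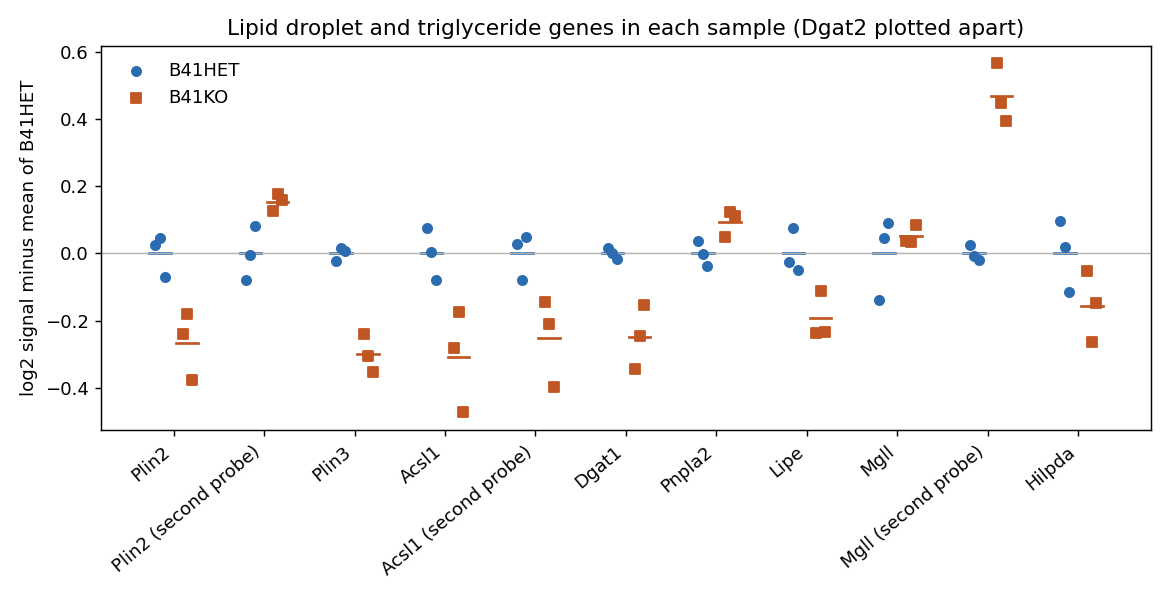
Log2 signal of each sample minus the B41HET mean for the 11 probes other than that of Dgat2. Circles are B41HET, squares are B41KO (3 samples each), and short lines are group means. The B41KO squares lie below every circle for Plin3, Acsl1, Dgat1 and Lipe and for the brightest Plin2 probe, and above every circle for the second Plin2 and Mgll probes and for Pnpla2.

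Among the droplet coats, Plin2 encodes the perilipin found on droplets of most cells. Its brightest probe read 9.26, 9.28 and 9.16 in B41HET and 8.995, 9.05 and 8.86 in B41KO. All B41KO samples were lower than all B41HET samples, by a log2 fold change of -0.27 (SE 0.08, n = 3 per genotype, limma adjusted p = 0.131), which was not called. The second Plin2 probe, designed on the same transcript accession, read 7.25, 7.32 and 7.41 in B41HET and 7.45, 7.50 and 7.48 in B41KO. It differed the other way, by 0.15 (SE 0.07, limma adjusted p = 0.288), and was not called either. The difference between the probes was not tested. The E-box at the annotated start of Plin2 stood beside 1 probe with a negative and 1 with a positive log2 fold change.

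Plin3 encodes a perilipin that moves from the cytosol onto young droplets. It read 8.27, 8.31 and 8.30 in B41HET and 8.05, 7.99 and 7.94 in B41KO. The groups were apart by 0.22 at their nearest samples. The log2 fold change was -0.30 (SE 0.07, 95% interval -0.47 to -0.13), with a limma adjusted p of 0.062. It was short of the fold threshold as well and was not called. With trend and robust variance its adjusted p was 0.0246.

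In fatty acid activation and triglyceride synthesis, all 3 members had negative log2 fold changes by every probe. Acsl1 encodes a long-chain acyl-CoA synthetase. Its brightest probe read 7.83, 7.76 and 7.68 in B41HET and 7.47, 7.58 and 7.28 in B41KO, a log2 fold change of -0.31 (SE 0.10, limma adjusted p = 0.148). The second Acsl1 probe read 6.52, 6.41 and 6.54 against 6.35, 6.28 and 6.09, a log2 fold change of -0.25 (SE 0.09, limma adjusted p = 0.189). Both probes of Acsl1 were lower in every B41KO sample, and neither was called.

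Dgat1 and Dgat2 encode unrelated enzymes that catalyse the same final step of triglyceride synthesis. Dgat1 read 9.79, 9.78 and 9.76 in B41HET and 9.43, 9.53 and 9.62 in B41KO. Its groups did not overlap, and the log2 fold change was -0.25 (SE 0.08, limma adjusted p = 0.1275), which was not called.

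Dgat2 read 3.91, 3.55 and 3.88 in B41HET and 2.34, 1.71 and 0.86 in B41KO. Before normalization these were processed intensities of 15.6, 12.9 and 14.2 against 4.75, 3.67 and 2.03. It was well above background on 3 of 3 B41HET arrays and on 0 of 3 B41KO arrays, so the knockout values are only a bound. Set against the lowest signal well above background on each B41KO array, Dgat2 was at least 1.83-fold higher in B41HET. Like the bounds given for Fn1, this is a point value of group means with no interval. The measured means were 3.78 ± 0.20 and 1.63 ± 0.74 (SD, n = 3), a log2 fold change of -2.15 (SE 0.38, limma adjusted p = 0.0334). The call was lost without B41HET replicate 1, 2 or 3 or B41KO replicate 2, with adjusted p from 0.097 to 0.111. It was also lost with another background correction, normexp, where the log2 fold change was -0.21. The offset of 50 added there exceeds the Dgat2 intensities of every array given above. The fold change of so dim a probe had to shrink in that setting, so this loss is no check of the call. With the slide row as a block the log2 fold change was -1.44 (adjusted p = 0.177), but B41KO replicates 2 and 3 were alone in their row, so that value sets 1 knockout sample against the controls. Neutrophil, border macrophage, monocyte and endothelial markers were called lower in B41KO as well, in the numbers given above.

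**Figure D2:**
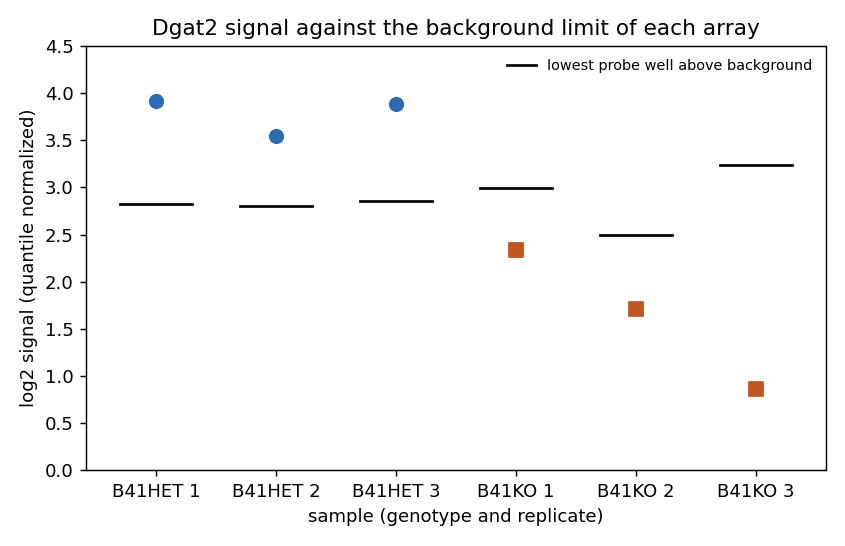
Quantile-normalized log2 signal of the Dgat2 probe in each of the 6 samples, with circles for B41HET and squares for B41KO. The black line is the lowest signal of any probe well above background on that array, between 2.50 and 3.24. The B41HET circles lie above their lines and the B41KO squares below theirs.

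Among the lipolysis genes, no brightest probe was called. Pnpla2 encodes ATGL, which removes the first acyl chain of triglyceride. It read 10.17, 10.13 and 10.096 in B41HET and 10.18, 10.26 and 10.24 in B41KO. The groups were apart by only 0.01, and the log2 fold change was 0.09 (SE 0.07, limma adjusted p = 0.476).

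Lipe encodes hormone-sensitive lipase, which acts on diacylglycerol and cholesteryl esters. It read 10.33, 10.43 and 10.30 in B41HET and 10.12, 10.24 and 10.12 in B41KO. Each B41KO sample was lower than each B41HET sample, with a log2 fold change of -0.19 (SE 0.08, limma adjusted p = 0.214) that was not called.

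Mgll encodes monoacylglycerol lipase, which frees the last fatty acid and, in brain, degrades the endocannabinoid 2-arachidonoylglycerol. Its probes were designed on different transcript accessions and read differently. The brightest probe read 9.22, 9.41 and 9.45 in B41HET and 9.40, 9.40 and 9.45 in B41KO. The groups overlapped, and the log2 fold change was 0.05 (SE 0.09, 95% interval -0.16 to 0.27, limma adjusted p = 0.776). The second probe read 7.45, 7.42 and 7.40 in B41HET and 7.99, 7.87 and 7.82 in B41KO. Every B41KO sample was higher, by a log2 fold change of 0.47 (SE 0.08, 95% interval 0.28 to 0.66). Its adjusted p in limma was 0.0269, but its size was short of the fold threshold, so it was not called. By adjusted p alone it would have been 1 of 2 member probes to pass, the other being that of Dgat2, where 6.75% of all probes passed. Without any 1 of the 6 samples, its adjusted p was 0.055 to 0.103. The difference between the Mgll probes was not tested.

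Hilpda encodes a small droplet protein that inhibits ATGL and is induced by hypoxia and fatty acids. It read 5.03, 4.95 and 4.81 in B41HET and 4.88, 4.66 and 4.78 in B41KO. The groups overlapped, and the log2 fold change was -0.15 (SE 0.10, limma adjusted p = 0.4085).

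**Figure D3:**
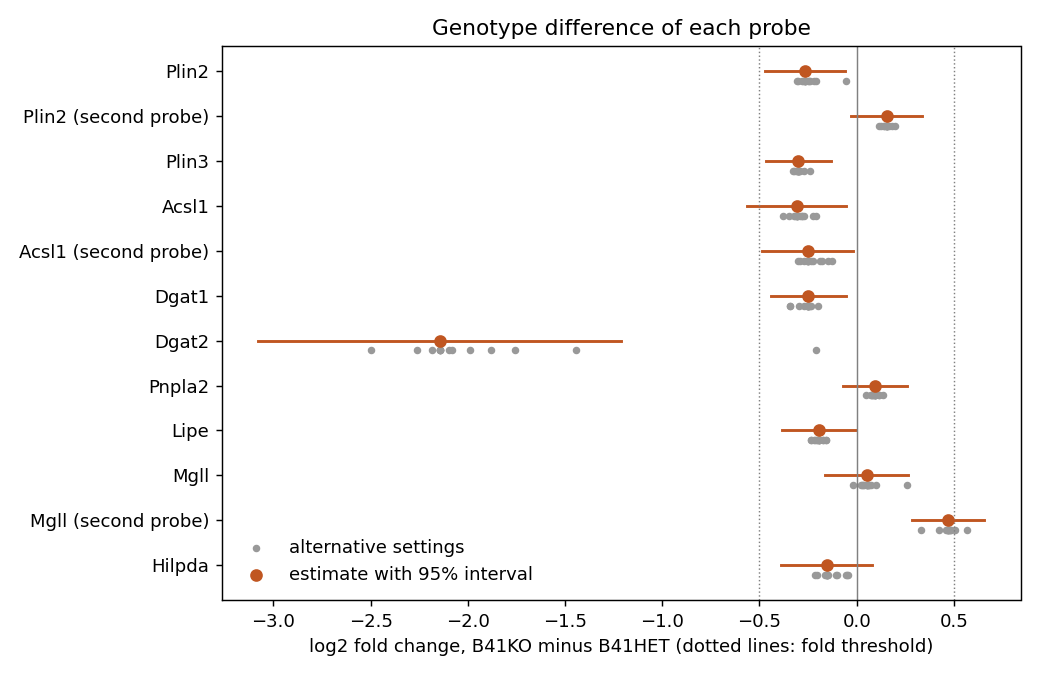
Log2 fold change of B41KO over B41HET for the 12 probes, with the 95% interval as a line. Grey points are the values under the alternative settings, and dotted lines mark the fold threshold of 0.5 in either direction. Dgat2 lies at -2.15 with 1 alternative at -0.21 (normexp with an offset of 50), while the estimates of the other 11 probes lie inside the dotted lines. For the second Mgll probe, 2 alternatives lie past the line, at 0.57 with the slide row as a block and 0.51 without B41KO replicate 3.

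The rest of the pathway was read from a list of 54 further genes in 8 roles, each by its brightest probe. Soat2 was called higher, Mogat1 and G0s2 were called lower, and 51 were not called. Over all genes, 1.44% were called higher and 4.05% lower. The median log2 fold change of the 54 was -0.05, and the groups did not overlap in 21 of them, where 32.1% of all genes had no overlap.

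G0s2 encodes an inhibitor of ATGL, the product of Pnpla2. It read 8.09, 8.03 and 7.78 in B41HET and 7.35, 7.16 and 7.47 in B41KO, a log2 fold change of -0.64 (SE 0.13, limma adjusted p = 0.0438). Its B41KO values were all lower, beside the neutrophil, border macrophage, monocyte and endothelial markers called lower in the numbers given above.

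Mogat1 encodes an enzyme that makes diacylglycerol from monoacylglycerol, ahead of the DGAT step. Its brightest probe read 6.84, 6.65 and 6.77 in B41HET and 6.28, 5.98 and 6.04 in B41KO, a log2 fold change of -0.65 (SE 0.11, limma adjusted p = 0.0293). Its second probe was well above background on 1 of 6 arrays and was not called.

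Soat2 encodes an enzyme that esterifies cholesterol for storage. Its brightest probe read 5.52, 5.36 and 5.56 in B41HET and 6.14, 6.12 and 6.10 in B41KO, a log2 fold change of 0.64 (SE 0.08, limma adjusted p = 0.0142). A second probe on the same accession, well above background on all arrays, differed by -0.04 (limma adjusted p = 0.852), so the probes of Soat2 did not give the same reading. The call of G0s2 was lost in 9 of 14 alternative settings, among them the omission of any 1 sample (adjusted p = 0.062 to 0.142). That of Mogat1 was lost in 8 of 14, among them the omission of any sample but B41KO replicate 1, and that of Soat2 in 7 of 14, among them the omission of any sample but B41HET replicate 3 or B41KO replicate 3. Agpat5, an acyltransferase gene named after its values were seen, was not called by its brightest probe (0.09), while its dimmer probe, well above background on 2 of 3 B41HET and 3 of 3 B41KO arrays, was called higher (0.95, limma adjusted p = 0.0368).

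By role, no gene was called among the 6 coat and CIDE genes, the 4 droplet formation genes, the 4 acyl-CoA synthetases, the 7 uptake and binding genes or the 9 oxidation genes. By their brightest probes, all 4 droplet formation genes had negative log2 fold changes, with a median of -0.25, but the second probes of Fitm2 and Tmem159 were at 0.08 and 0.07. The median of the 6 other coat genes was 0.20, with 4 of them above 0 and 2 below. The brightest probes of Plin2 and Plin3 were at -0.27 and -0.30. The second probe of Plin2 was at 0.15 and that of Plin5 at -0.03. None of these coat genes was called, and a difference between them was not tested.

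**Figure D4:**
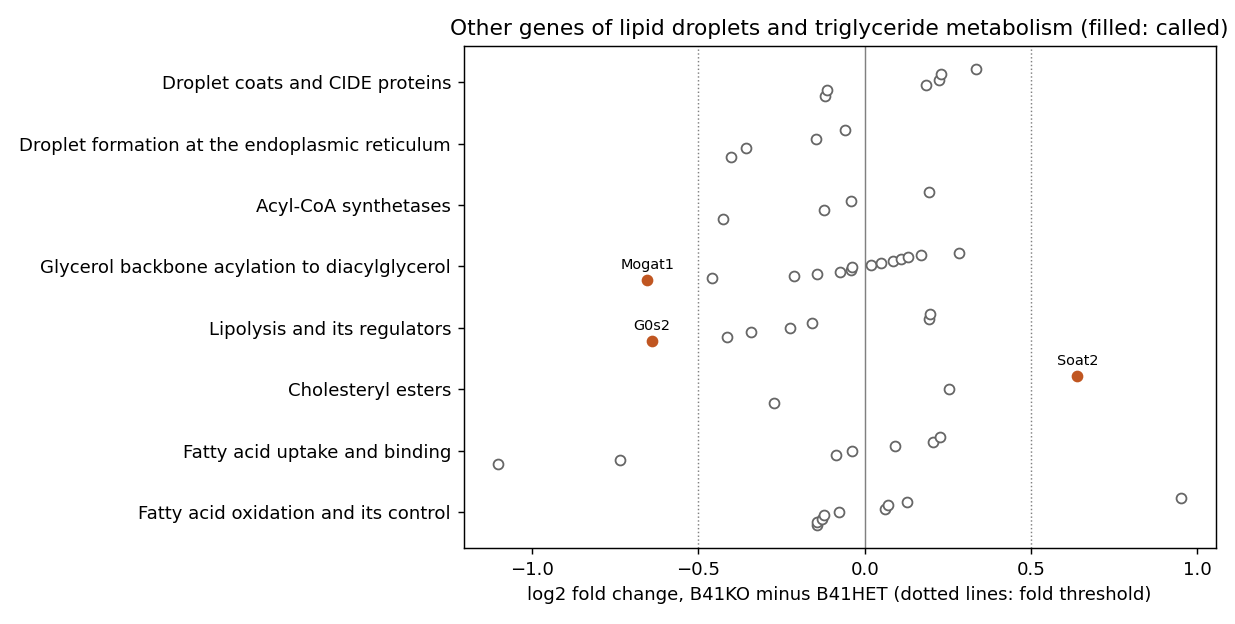
Log2 fold change of B41KO over B41HET for the brightest probe of each of 54 further genes, in rows by role. Filled points were called, and dotted lines mark the fold threshold of 0.5 in either direction. Soat2 (0.64) is filled on the right and Mogat1 (-0.65) and G0s2 (-0.64) on the left, and 3 open points past the dotted lines did not pass the adjusted p.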

How the data were processed

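Cy3-labelled RNA of 3 B41HET and 3 B41KO samples was read on Agilent 8x60K mouse arrays, all on 1 slide. The authors deposited scanner intensities from Feature Extraction 11.5.1.1, background-subtracted within each array and not normalized between arrays. They also deposited a table of log2 values with the same quantiles in all 6 columns, whose scale is not stated there, used as an alternative. Here control spots were left out, log2 processed intensities were quantile normalized, 95 to 136 outlier-flagged spots per array were removed, and spots of a probe were averaged. limma 3.58.1 in R 4.3.3 was fitted with genotype as the only term. The study's methods name quantile normalization, limma and the call thresholds, and no model terms. On simulated data the fit recovered the fold changes set, but many changed probes were not called, mainly those set at the fold threshold and those with a wide spread between samples, so a probe not called may still differ. Accessions without versions were matched to RefSeq genes (GRCm38.p6), naming 33767 probes (59.7%). The array design names mm9, so coordinates are given only for RefSeq promoter windows. Figures used matplotlib 3.10.9. Members and lists were chosen with earlier results of these data known. Named genes were all members, pathway genes called by their brightest probe, genes with probes called in opposite directions (none was found) and Bhlhe41. Agpat5, Fitm2, Tmem159 and the marker genes named were added after their values were seen. The number of arrays, 6, limits the precision.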

Additional observations from a re-analysis of the deposited data

How the results depend on the processing

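Main counts were 1 member probe, 1 member gene, 3 pathway genes and 2883 of all probes called. With normexp background correction these were 0, 0, 1 and 1501, though 7 of 12 member probes passed the adjusted p there, whereas blocking on slide row gave 0, 0, 0 and 448 (B41KO replicates 2 and 3 were alone in the other row, so this rests on 1 knockout sample). With the replicate block they were 0, 0, 0 and 42. Deviations of same-numbered samples correlated at 0.03, 0.01 and 0.05, so the numbers were not taken to pair the samples. With no fold threshold, 2 of 12 member probes and 7 of 54 pathway genes passed, beside 6.75% of all probes. The share of all genes by the brightest probe was not counted for that setting. Leaving out 1 sample gave 0 to 1 member probes, 0 to 1 member genes, 0 to 2 pathway genes and 796 to 1524 of all probes. Over these 6 fits the brightest Mgll probe ranged from -0.018 to 0.098, the negative value being without B41HET replicate 1. No other member probe changed sign in the alternatives run. Shifting arrays to their 75th percentile moved the median of all probes to 0.13. Relative to that median the brightest Mgll probe (-0.10) and Pnpla2 (-0.05) were below 0, and the other 10 probes kept their sign. The causes of these changes were not tested. Dgat2 in B41KO was limited by signal over background.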
